A study of Mus musculus with 12 samples.

Results

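The cholesterol synthesis and SREBP2 pathway was followed through 34 listed genes in mouse liver. A gene was taken as measured when the array held a probe set annotated to its symbol alone, and the probe set with the highest mean represented it, which gave 26 of the 34 genes among 12393 genes in all. By role, the measured members were 7 of 8 enzymes of the mevalonate pathway, 11 of 11 enzymes of the squalene and sterol steps, 5 of 8 genes of sterol sensing and 3 of 6 genes of sterol transport and esterification. Acat2, Insig1, Mbtps2, Erlin2, Soat1, Soat2, Npc1l1 and Nr1d3 had no such probe set and have no value here. The rule for a measured gene used no expression value beyond the highest mean of a probe set. The listed genes themselves were chosen with earlier results of these data known.

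Total liver RNA of 12 male mice was hybridized to Affymetrix mouse genome arrays, 1 array a mouse and 3 mice a group. WT mice had intact RXRα, the retinoid X receptor alpha, and ate the normal diet. WT_RA mice were wild type and ate a diet with 150 mg/kg of retinoic acid (RA) for 7 days. KO mice lacked RXRα function in hepatocytes and ate the normal diet, and KO_RA mice were of that genotype on the RA diet. All were on the C57BL/6 background, and an age of 12 weeks is stated for the wild type mice. In KO mice a Cre recombinase driven by the albumin promoter, which is active in hepatocytes, removed a floxed exon that encodes the DNA-binding domain. A shortened protein with the ligand-binding domain is still made.

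Hepatocytes make cholesterol from acetyl-CoA by way of mevalonate, isoprenoid diphosphates, squalene and lanosterol. When sterols in the membrane of the endoplasmic reticulum are low, Scap escorts the membrane-bound precursor of SREBP2, the product of Srebf2, to the Golgi, where proteases release the active transcription factor. When sterols are plentiful, Insig proteins hold Scap back. SREBP2 binds sterol regulatory elements, usually beside sites for NF-Y and Sp1, in the promoters of nearly all enzymes of the pathway, so that these genes tend to move as a block and follow feeding and sterol supply.

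Promoter sequences of 4 members are shown because they belong to genes that the results turn on. Hmgcs1 makes the substrate of the rate-limiting step, Mvd showed the largest difference among the enzymes, Srebf2 encodes the regulator, and Erlin1 was the only member called. Each line gives 250 bases upstream of the start of transcription, 5′ to 3′ on the strand of the gene, from RefSeq on GRCm38.p6. Capitals mark the motifs TCACNCCAC (a sterol regulatory element), CCAAT (the NF-Y box) and GGGCGG (the Sp1 box), on either strand, and N is any base. The windows are chr13:119690101-119690350 on the plus strand for Hmgcs1, chr8:122443423-122443672 on the minus strand for Mvd, chr15:82147019-82147268 on the plus strand for Srebf2, and chr19:44069786-44070035 on the minus strand for Erlin1, the first of its 3 listed windows.
Hmgcs1: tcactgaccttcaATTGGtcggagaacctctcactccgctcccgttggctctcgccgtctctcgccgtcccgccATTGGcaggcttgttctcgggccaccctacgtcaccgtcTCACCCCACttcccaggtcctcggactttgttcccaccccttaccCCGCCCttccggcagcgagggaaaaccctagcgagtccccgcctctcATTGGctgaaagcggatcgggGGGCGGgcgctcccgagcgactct
Mvd: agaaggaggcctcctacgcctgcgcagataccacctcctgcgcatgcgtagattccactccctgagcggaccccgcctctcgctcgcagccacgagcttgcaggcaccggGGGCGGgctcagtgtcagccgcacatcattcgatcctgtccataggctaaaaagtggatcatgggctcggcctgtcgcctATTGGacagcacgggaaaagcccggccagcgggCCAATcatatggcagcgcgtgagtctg
Srebf2: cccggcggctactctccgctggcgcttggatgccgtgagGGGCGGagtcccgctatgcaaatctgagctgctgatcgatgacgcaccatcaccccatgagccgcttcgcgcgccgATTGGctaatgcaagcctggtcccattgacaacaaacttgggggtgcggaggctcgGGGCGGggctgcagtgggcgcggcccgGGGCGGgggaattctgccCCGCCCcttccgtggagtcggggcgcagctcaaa
Erlin1: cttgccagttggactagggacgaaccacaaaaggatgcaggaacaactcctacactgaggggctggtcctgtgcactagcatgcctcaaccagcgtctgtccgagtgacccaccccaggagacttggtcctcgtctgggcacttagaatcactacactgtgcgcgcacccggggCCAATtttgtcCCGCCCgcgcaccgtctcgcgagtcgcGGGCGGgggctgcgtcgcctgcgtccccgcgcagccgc

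The sequence table listed windows for 21 of the 26 members, 29 windows in all, and for none of Sqle, Fdft1, Fdps, Stard4 and Npc1. Within these 250 bases CCAAT was found in 21 of the 29 windows (72.4%), against 33.8% of all 32851 windows of the table. GGGCGG was found in 23 of 29 (79.3%), against 32.7% of all windows. Some genes had several windows, and those of Erlin1 overlap each other, so the 29 windows are not separate observations. All 15 of the 15 synthesis enzymes with a window held a CCAAT box and 13 held a GGGCGG box in at least 1 window. No share over all genes was computed for these counts by gene. The sterol element TCACNCCAC matched 1 window, that of Hmgcs1, with its first base at position -137 from the start, against 1.05% of all windows. TCACGTGA, an element of the E-box type, matched 0 of 29 windows, against 0.785% of all. The motifs searched did not overlap each other in these windows. These are matches of letters and were not tested as sites.

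Array medians lay between 6.26 and 6.35 on the log2 scale. WT_RA 3 and KO 1 stood apart, as the control probe set for the 3′ end of Actb read 9.40 and 9.12 there and 12.1 to 12.9 on the other 10 arrays. Values without these arrays are given beside some of the results. Rxra differed between KO and WT by -0.03 ± 0.18 (SE, n = 3). Whether its probe set overlaps the deleted exon is not stated, so this value is no check of the deletion or the labels. Under RA it was 0.61 ± 0.18 higher in KO_RA than in WT_RA (limma adjusted p = 0.0911), which did not pass. The 13 hepatocyte markers had median deviations of -0.10 to 0.19 over the 12 arrays. Single markers among them ranged from -2.31 on KO 2 to 1.63 on WT_RA 2. Their differences are given below with the 4 contrasts between groups and the interaction. Kupffer cell and macrophage markers and sinusoidal endothelial markers varied between groups. Their values are given beside Erlin1, the contrasts of RA, RXRα deficiency under RA and Npc2. Other lists varied too. The summed linear signal of 4 erythroid markers was 1615 to 1804 in WT, 203 to 1300 in WT_RA, 1749 to 2162 in KO and 170 to 289 in KO_RA. Of these 4, Hba-a1 and Hba-a2 lay below the lower quartile on every array. In KO_RA against KO 2 of the 4 read higher and 2 lower, from -3.68 to 0.14, with a median of -0.07 and 1 called lower. Single stellate cell markers reached -1.705 in KO_RA against KO, and single neutrophil markers 2.25 in WT_RA against WT, with 0 called in either. Their part was not tested. In whole liver, fewer cells of a type and less RNA per cell cannot be told apart.

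The 18 synthesis enzymes moved together from array to array, and the arrays of a group differed by as much as the groups. As the deviation of each gene from its own mean over the 12 arrays, the median over the 18 enzymes was -0.91, 0.06 and 0.14 log2 units on the WT arrays. It was 0.11, -0.00 and -0.13 on the WT_RA arrays and -0.53, 0.29 and 0.03 on the KO arrays. On the KO_RA arrays it was 0.59, -0.07 and 0.72. WT 1 was the lowest array of all, KO 1 the next, and KO_RA 1 and KO_RA 3 were the highest, while KO_RA 2 lay below 6 of the 9 arrays of the other groups. The pooled SD of this value within groups was 0.42.

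**Figure D1:**
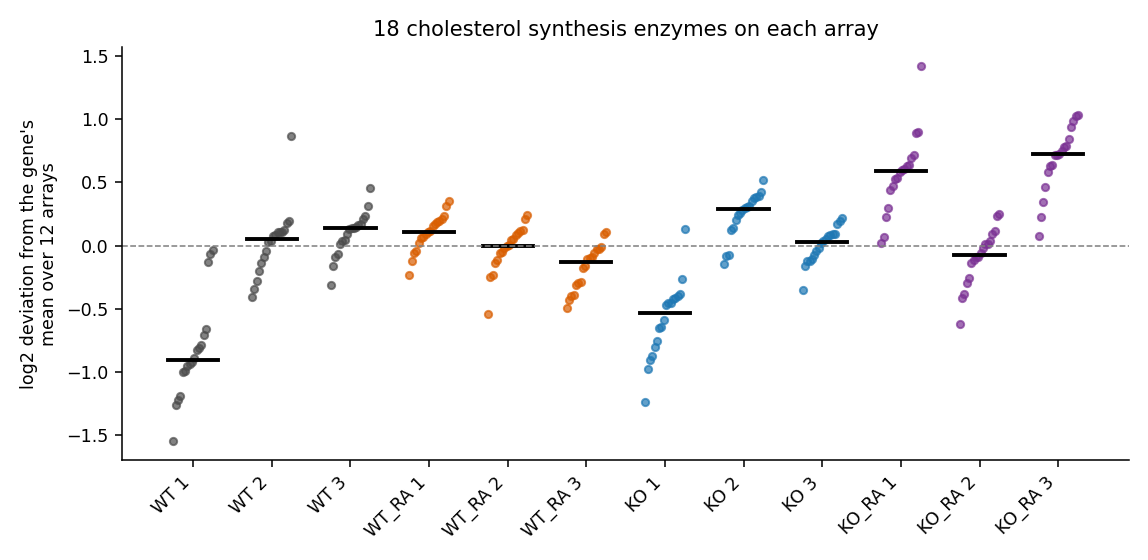
Deviation of each of 18 cholesterol synthesis enzymes from its own mean over the 12 arrays, in log2 units, for each array. Points are genes, sorted within an array, and black bars are medians, which run from -0.91 on WT 1 to 0.72 on KO_RA 3.

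Single arrays stood out for nearly the whole pathway. On WT 1, 0 of 18 enzymes lay above their own mean, and 11 of 18 had their lowest value of the 12 arrays there. On KO_RA 1 and KO_RA 3 all 18 lay above their mean, and 15 had their highest value on KO_RA 3. Within a group, the lowest of the 3 arrays was the same for 17 of 18 enzymes in 3 groups, namely WT 1, KO 1 and KO_RA 2. Over all genes these arrays were the lowest of their group for 41.1%, 34.4% and 39.7%. The order was looser in WT_RA, where WT_RA 3 was lowest for 13 of 18. Other listed targets of SREBP2 that are not enzymes of the pathway, such as Rdh11 and Acss2, had the lowest value on WT 1 for 7 of 11, on KO 1 for 8 of 11 and on KO_RA 2 for 10 of 11. The 8 members outside synthesis had theirs on these arrays for 3, 7 and 3 genes.

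The median SD within groups was 0.45 for the synthesis enzymes, 0.19 for the other members and 0.14 for all genes. Mvd (0.63) and Sc5d (0.60), the desaturase that makes 7-dehydrocholesterol, were the most variable enzymes. The steadiest were Ggps1 (0.10), which makes geranylgeranyl diphosphate on a branch that leaves the sterol route, Tm7sf2 (0.18), a sterol reductase, and Ebp (0.19), a sterol isomerase. Ggps1 read 6.20 to 6.66 on the 12 arrays, close to the array medians.

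By group means, KO_RA was the highest group for 17 of 18 enzymes (94.4%), against 21.7% of all genes, the exception being Sc5d with its highest mean in WT. This count was 14 without KO_RA 3 and 16 to 18 without any other single array. WT was the lowest group for 12 of 18 enzymes (66.7%), against 22.7% of all genes. Without WT 1 this count was 3, without KO 2 it was 7, and without any other array it was 11 to 13. Because the enzymes moved together from array to array, these counts and those in the contrasts below are not 18 separate observations.

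RA in wild type mice addressed what dietary RA does to the pathway with RXRα present. No member passed the test: limma called 0 of 26 members at an adjusted p under 0.05, while 1.27% of all genes were called. An unadjusted p under 0.05 was found for 3 members, against 1454 of all 12393 genes. Of the 18 enzymes 13 read higher and 5 lower in WT_RA, with a median difference of 0.18 on the log2 scale against -0.01 over all genes. Without WT 1 the median was -0.10, with 5 enzymes higher and 13 lower, and it was 0.29 without WT 2 and 0.39 without WT 3. It was 0.08 without WT_RA 1 and 0.30 without WT_RA 3. The arrays of WT and WT_RA did not overlap for 4 members, all higher under RA, namely Cyp51, Sqle, Erlin1 and Npc2, and for 0 lower. Over all genes 8.77% were higher and 7.86% lower without overlap. Of the 16 Kupffer cell and macrophage markers all read higher in WT_RA, with a median of 1.03, 9 at an unadjusted p under 0.05 and 2 called. Of the 13 hepatocyte markers 4 read higher and 9 lower, with a median of -0.07 and 0 called. Of the 10 sinusoidal endothelial markers 4 read higher and 6 lower, with a median of -0.01 and 0 called. The part of these cell types in the enzyme values was not tested.

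Hmgcs1, the cytosolic synthase that makes HMG-CoA, read 11.13, 12.48 and 12.83 in WT, 12.88, 12.73 and 12.79 in WT_RA, 12.26, 13.07 and 12.77 in KO, and 13.28, 12.57 and 13.40 in KO_RA. All groups overlapped, and WT 1 was more than 1 log2 unit below each of the other arrays. Its difference under RA in wild type mice was 0.65 ± 0.37 (SE, n = 3, limma adjusted p = 0.567), with a 95% interval of -0.15 to 1.45. It was 0.15 without WT 1 and 0.99 without WT 3.

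Sqle encodes squalene epoxidase, which adds the first oxygen to squalene. It read 9.51, 10.36 and 10.46 in WT, 10.86, 10.75 and 10.76 in WT_RA, 10.13, 11.29 and 10.65 in KO, and 11.66, 11.02 and 11.81 in KO_RA. The WT arrays lay below all WT_RA arrays, and these lay below all KO_RA arrays, while the KO arrays overlapped each of the other groups. Under RA in wild type mice the difference was 0.68 ± 0.30 (adjusted p = 0.411), a 1.60-fold higher level with a 95% interval of 0.02 to 1.34 on the log2 scale. It was 0.38 without WT 1 and 0.86 without WT 3.

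Cyp51, the lanosterol demethylase, read 9.24, 9.57 and 9.75 in WT, 10.22, 10.12 and 9.88 in WT_RA, 9.11, 10.05 and 9.79 in KO, and 10.54, 10.00 and 10.64 in KO_RA. WT and WT_RA did not overlap, whereas KO 2 lay just above KO_RA 2. The differences under RA were 0.55 ± 0.23 in wild type (adjusted p = 0.367) and 0.74 ± 0.23 in KO mice (adjusted p = 0.192), the latter 0.47 without KO 1. Averaged over genotypes Cyp51 was 0.65 ± 0.16 higher under RA (adjusted p = 0.0677), the smallest p of an enzyme in that contrast. It passed without KO 2 or without KO_RA 2, and the adjusted p ranged from 0.0339 to 0.16 over the 12 fits that left out 1 array.

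**Figure D2:**
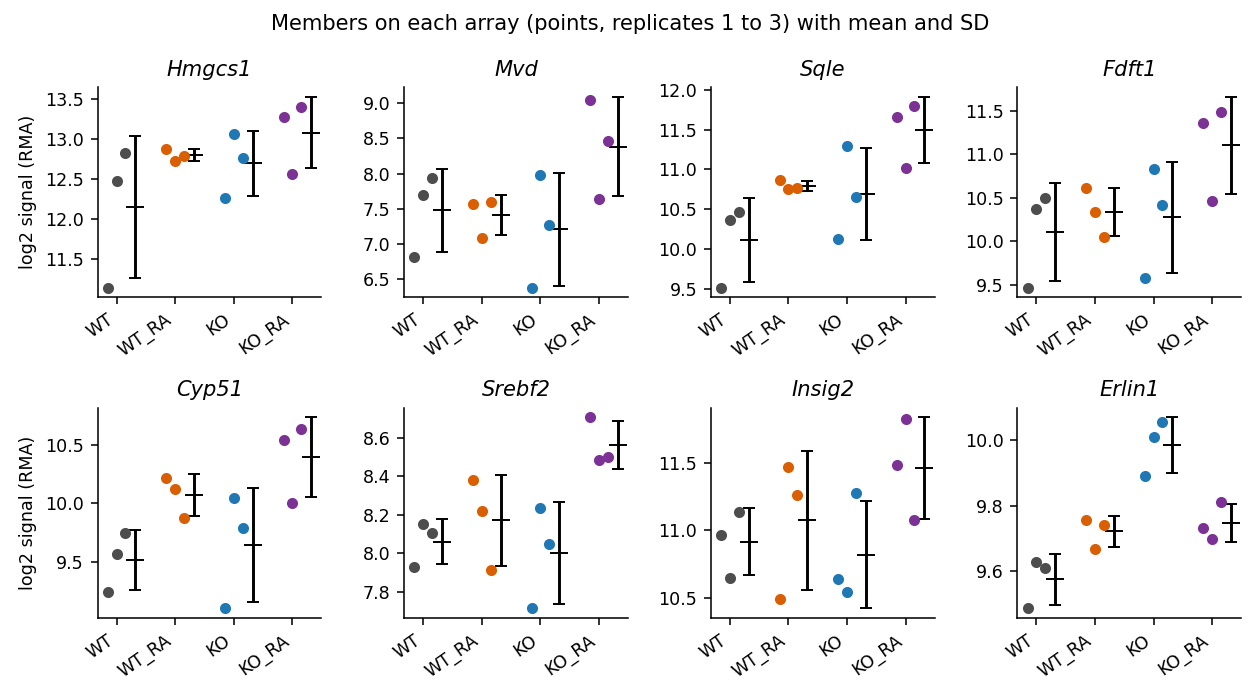
Log2 signal of 8 members on each array, with replicates 1 to 3 as points from left to right and the mean with its SD beside them. Erlin1 lay at 9.89 to 10.05 on the KO arrays, above all other arrays, while WT 1 was the lowest WT array for Hmgcs1, Mvd, Sqle, Fdft1 and Cyp51.

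RXRα deficiency on the normal diet addressed whether the pathway depends on hepatocyte RXRα without added RA. Limma called 1 of 26 members, Erlin1, while 1.32% of all genes were called. Of the enzymes 13 read higher and 5 lower in KO, with a median of 0.15 against 0.02 over all genes. This median was -0.16 without WT 1, while leaving out WT 2 or WT 3 gave 0.30 and 0.32. It was 0.43 without KO 1, -0.04 without KO 2 and 0.12 without KO 3. Hmgcs1 differed by 0.55 ± 0.37 (95% interval -0.25 to 1.35) and Sqle by 0.58 ± 0.30 (-0.08 to 1.24). Without WT 1 these were 0.05 and 0.28, Hmgcs1 was 0.89 without WT 3, and Sqle was 0.28 without KO 2 and 0.86 without KO 1. The arrays did not overlap for 1 member higher in KO, again Erlin1, and for 0 lower, against 9.85% and 10.2% of all genes. Of the 13 hepatocyte markers 4 read higher and 9 lower in KO, with a median of -0.10 and 0 called. Among these markers 1 was higher and 5 were lower without overlap, and their part was not tested.

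Erlin1 encodes a protein of the endoplasmic reticulum membrane that, in a complex with Erlin2, takes part in the degradation of membrane proteins there and in the retention of SREBP precursors. It read 9.49, 9.63 and 9.61 in WT, 9.76, 9.67 and 9.74 in WT_RA, 9.89, 10.01 and 10.05 in KO, and 9.73, 9.70 and 9.81 in KO_RA. The KO arrays lay above all others, the WT arrays below all others, and both RA groups lay between and overlapped each other. Erlin1 rose by 0.41 ± 0.08 in KO on the normal diet (SE, n = 3, limma adjusted p = 0.0338), a 1.33-fold rise with a 95% interval of 0.23 to 0.58 on the log2 scale. Averaged over diets it rose by 0.22 ± 0.06 (adjusted p = 0.0476).

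The Erlin1 call on the normal diet was absent without WT 1, WT 2, WT 3, KO 2, KO 3 or KO_RA 1, with adjusted p up to 0.11, and held without WT_RA 3 and KO 1 together (0.45, adjusted p = 0.0277). The call averaged over diets was absent in 11 of these 12 fits. A further Erlin1 probe set, with a weaker signal, differed by 0.14 ± 0.14 between KO and WT. Kupffer cell and macrophage markers were higher in KO beside Erlin1, for 16 of 16 measured with a median of 1.23. Of these markers 15 had an unadjusted p under 0.05 (against 2017 of all 12393 genes) and 0 were called. Their summed signal, on the linear scale, was 2525 to 3226 in WT, 4105 to 7734 in WT_RA, 3443 to 16157 in KO and 4072 to 4658 in KO_RA, and no marker of the list lay below the lower quartile on every array. Of 10 sinusoidal endothelial markers 9 were higher in KO, with a median of 0.31, 7 at an unadjusted p under 0.05 and 0 called. Their summed signal was 1888 to 2323 in WT, 1952 to 2094 in WT_RA, 2525 to 2855 in KO and 2040 to 2133 in KO_RA, and none lay below the lower quartile on every array. The part of either cell type in the Erlin1 values was not tested.

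RA in KO mice addressed what RA does without hepatocyte RXRα. All 18 enzymes read higher in KO_RA than in KO, with a median of 0.43 against -0.03 over all genes, and none passed. This count was 16 without KO 1, 17 without KO 3 or KO_RA 2, and 18 without any other array. Limma called 0 of 26 members, and 0.5% of all genes were called. An unadjusted p under 0.05 was found for 8 members, 7 of them higher. Over all 12393 genes it was found for 1740, of which 758 were higher. The median was 0.25 without KO 1, 0.60 without KO 2 and 0.34 without KO_RA 1. It was 0.73 without KO_RA 2 and 0.26 without KO_RA 3. The arrays did not overlap for 3 members higher in KO_RA, Ebp, Srebf2 and Stard4, and for 1 lower, Erlin1, against 8.58% and 12.3% of all genes. Of the 16 Kupffer cell and macrophage markers 15 read lower in KO_RA than in KO, with a median of -0.65, 3 at an unadjusted p under 0.05 and 0 called. Of the 10 sinusoidal endothelial markers 8 read lower, with a median of -0.30 and 2 called. Of the 13 hepatocyte markers 9 read higher and 4 lower, with a median of 0.10 and 1 called higher. The part of these cell types in the enzyme values was not tested.

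Mvd, the decarboxylase that yields isopentenyl diphosphate, read 6.81, 7.69 and 7.94 in WT, 7.56, 7.08 and 7.59 in WT_RA, 6.38, 7.98 and 7.27 in KO, and 9.04, 7.64 and 8.47 in KO_RA. The highest KO array lay above the lowest KO_RA array, so these groups overlapped, while KO_RA lay above WT_RA throughout. The difference under RA in KO mice, 1.17 ± 0.42 (adjusted p = 0.247, 95% interval 0.25 to 2.09), was the largest of the synthesis enzymes. It was 0.76 without KO 1 and 1.56 without KO 2.

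Fdft1, squalene synthase, read 9.47, 10.37 and 10.50 in WT, 10.61, 10.34 and 10.05 in WT_RA, 9.58, 10.83 and 10.41 in KO, and 11.36, 10.47 and 11.48 in KO_RA. KO_RA 1 and KO_RA 3 lay above all arrays of the other groups, and KO_RA 2 lay among them. Fdft1 differed by 0.83 ± 0.36 under RA in KO mice (adjusted p = 0.328) and Sqle by 0.81 ± 0.30 (adjusted p = 0.262). Without KO 1 these were 0.48 and 0.53. The differences of the other squalene and sterol step enzymes ran from 0.26 for Dhcr7, a late reductase of the route to cholesterol, upwards, and Dhcr7 stood at -0.01 without KO 1.

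Srebf2 read 7.93, 8.15 and 8.10 in WT, 8.38, 8.22 and 7.91 in WT_RA, 7.71, 8.24 and 8.05 in KO, and 8.71, 8.48 and 8.50 in KO_RA. All KO_RA arrays lay above all arrays of the other groups. Srebf2 was 0.56 ± 0.15 higher under RA in KO mice (adjusted p = 0.111, 95% interval 0.24 to 0.88), the smallest p of a member in that contrast, and 0.42 without KO 1. A dimmer Srebf2 probe set read 7.30, 7.79 and 7.64 in WT, 8.07, 8.21 and 6.72 in WT_RA, 5.98, 7.37 and 7.08 in KO, and 8.31, 8.35 and 8.07 in KO_RA. It was low on the same arrays as the Actb control, WT_RA 3 and KO 1. Its difference under RA in KO mice was 1.44 ± 0.39, a fit that was not repeated without KO 1, and neither probe set passed.

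Insig2, which retains Scap, read 10.97, 10.65 and 11.13 in WT, 10.50, 11.47 and 11.26 in WT_RA, 10.64, 10.54 and 11.27 in KO, and 11.48, 11.82 and 11.08 in KO_RA. Its order within KO_RA was the opposite of that of most enzymes, with the highest value on KO_RA 2 and the lowest on KO_RA 3. The difference under RA in KO mice was 0.64 ± 0.27 (adjusted p = 0.321). Scap read 10.10, 10.07 and 9.88 in WT, 10.00, 9.81 and 9.63 in WT_RA, 9.53, 9.79 and 10.06 in KO, and 9.76, 9.92 and 10.04 in KO_RA. Its difference under RA in wild type mice was -0.20 ± 0.14 (95% interval -0.51 to 0.10), and -0.11 without WT_RA 3, with overlap of all groups. Mbtps1, the protease that makes the first cut in SREBP precursors, ranged from 8.39 to 8.91 over the 12 arrays.

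**Figure D3:**
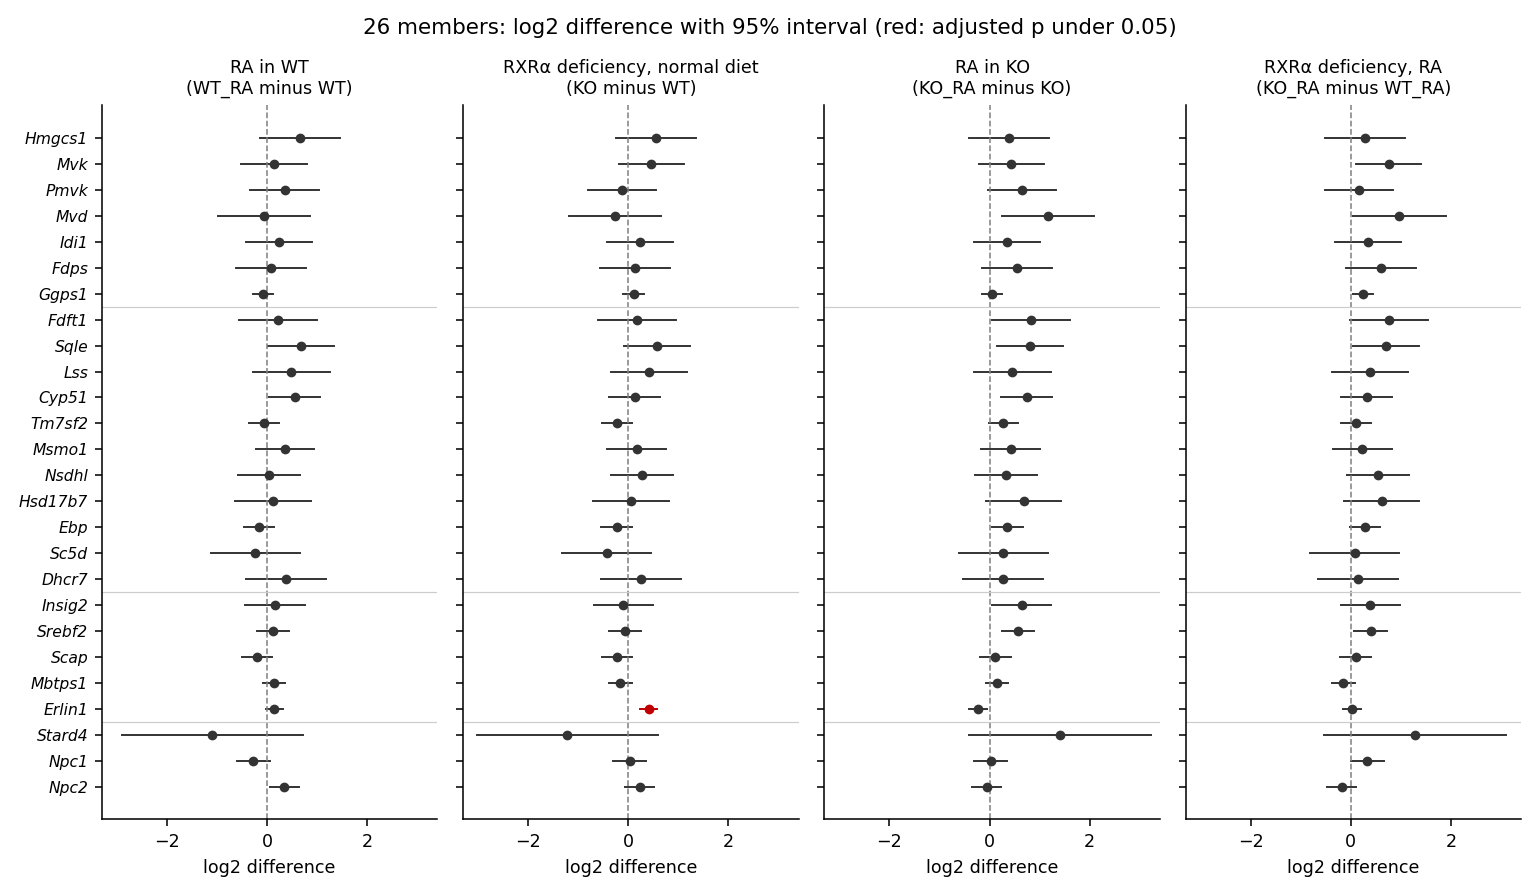
Log2 difference of 26 members in each of 4 contrasts with its 95% interval from limma, grouped by lines into mevalonate enzymes, squalene and sterol step enzymes, sensing genes and transport genes. Erlin1 in KO against WT, 0.41, is the only red point (adjusted p under 0.05), and all 18 enzymes lie above 0 in the right-hand pair of panels.

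RXRα deficiency under RA compared KO_RA with WT_RA. All 18 enzymes read higher in KO_RA, with a median of 0.33 against 0.01 over all genes. This count was 14 without KO_RA 3, 17 without KO_RA 1 or WT_RA 3, and 18 without any other array. Limma called 0 of 26 members, and 3.95% of all genes were called. An unadjusted p under 0.05 was found for 5 members, against 2208 of all 12393 genes. Mvd differed by 0.97 ± 0.42 (adjusted p = 0.253), with 0.64 without KO_RA 1 and 1.34 without KO_RA 2, and Sqle by 0.70 ± 0.30 (adjusted p = 0.248). The values were 0.76 ± 0.30 for Mvk, mevalonate kinase (adjusted p = 0.202), and 0.39 ± 0.15 for Srebf2 (adjusted p = 0.176). That of Srebf2 was 0.26 without WT_RA 3. The groups did not overlap for 5 members higher in KO_RA, Ggps1, Mvd, Sqle, Ebp and Srebf2, and for 1 lower, Mbtps1, against 11.3% and 14.3% of all genes. The median was 0.62 without KO_RA 2 and 0.23 without KO_RA 3, and positive in each of the 12 fits that left out 1 array. This contrast and RA in KO mice share the KO_RA arrays. Of the 16 Kupffer cell and macrophage markers 15 read lower in KO_RA than in WT_RA, with a median of -0.33 and 1 called lower. Of the 13 hepatocyte markers 10 read higher and 3 lower, with a median of 0.11 and 0 called. Of the 10 sinusoidal endothelial markers 6 read higher and 4 lower, with a median of 0.01 and 0 called. The part of these cell types in the enzyme values was not tested.

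The interaction, which asks if RA acts differently in KO and in wild type mice, had 0 of 26 members called, while 0.00807% of all genes were called. An unadjusted p under 0.05 was found for 3 members, against 1446 of all 12393 genes. The median of the enzymes was 0.29 in the direction of a larger RA effect in KO mice, with 15 positive and 3 negative. With 1 array left out it ranged from 0.08 without WT 3 to 0.50 without WT 1, and it was -0.02 without both WT_RA 3 and KO 1. The RA effect on the pathway was therefore not shown to differ between genotypes. Kupffer cell and macrophage markers were negative in the interaction for 16 of 16, with a median of -1.49, 13 at an unadjusted p under 0.05 and 0 called. Hepatocyte markers were positive for 13 of 13, with a median of 0.21, 2 at an unadjusted p under 0.05 and 0 called. The part of either cell type was not tested. Averaged over genotypes, RA gave 0 members called, against 2.34% of all genes. It gave 4 members with an unadjusted p under 0.05, against 1717 of all 12393 genes. The enzyme median was 0.36, and 0.19 without WT 1 and 0.20 without KO 1, while Sqle stood at 0.74 ± 0.21 (adjusted p = 0.113). RXRα deficiency averaged over diets gave 1 member called, Erlin1, against 5.34% of all genes. The enzyme median was 0.31, and ranged from 0.17 without WT 1 to 0.46 without KO_RA 2, while Sqle stood at 0.64 ± 0.21 (adjusted p = 0.109).

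**Figure D4:**
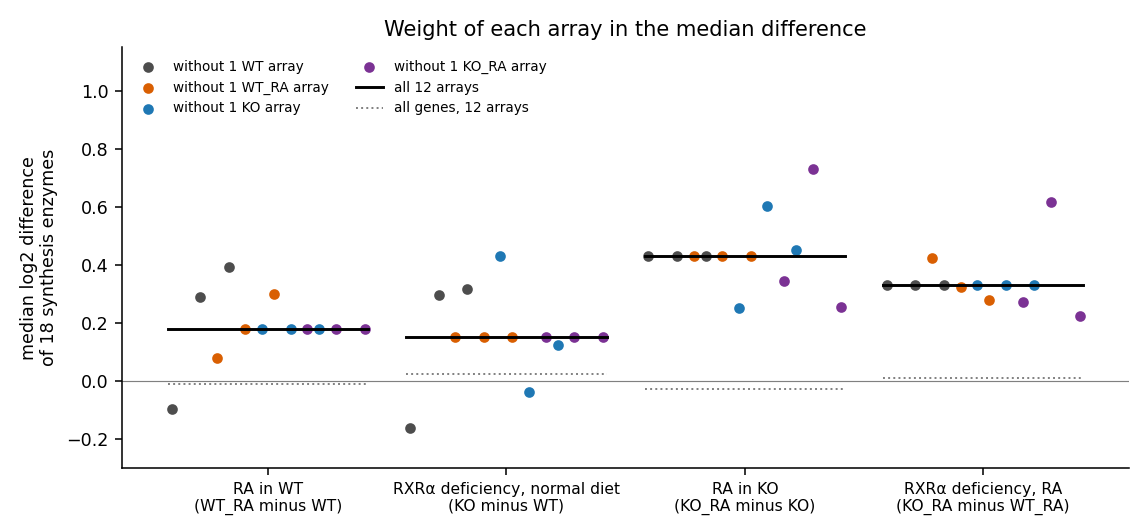
Median log2 difference of 18 synthesis enzymes in 4 contrasts with all 12 arrays (black line) and with 1 array left out (points, coloured by the group of that array, replicates 1 to 3 from left to right). The medians for RA in WT and for KO against WT lay below 0 without WT 1, at -0.10 and -0.16, while those of the contrasts with KO_RA stayed between 0.23 and 0.73.

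The weight of an array can also be estimated from how well it follows the fitted group means over all genes. Limma's array weights were 0.38, 7.12 and 0.63 for WT, 0.98, 1.28 and 0.60 for WT_RA, 0.32, 0.89 and 2.18 for KO, and 1.31, 0.62 and 1.53 for KO_RA. WT 1 and KO 1, the arrays with the lowest enzyme levels, thus had the smallest weights, and WT 2 had by far the largest. With these weights the enzyme median was 0.03 in the contrast of WT_RA with WT, 0.05 in that of KO with WT, 0.50 in that of KO_RA with KO and 0.46 in that of KO_RA with WT_RA.

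Transport genes were dominated by Stard4, which encodes a soluble carrier of sterols. It read 9.53, 10.27 and 9.92 in WT, 9.88, 9.71 and 6.85 in WT_RA, 6.66, 9.81 and 9.59 in KO, and 10.21, 9.88 and 10.19 in KO_RA. WT_RA 3 and KO 1 differed by -2.95 and -3.04 log2 units from the mean of the other arrays of their groups, and the other 10 arrays lay within 9.53 to 10.27. Its differences were -1.09 ± 0.83 for WT_RA against WT, -1.22 ± 0.83 for KO against WT, 1.41 ± 0.83 for KO_RA against KO and 1.28 ± 0.83 for KO_RA against WT_RA, with adjusted p from 0.463 to 0.732. Without both arrays they were -0.11, -0.20, 0.39 and 0.30.

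A further Stard4 probe set was also lowest on WT_RA 3 (7.13) and KO 1 (6.94), against 8.17 to 8.99 on the other arrays. Both arrays lay below the other 10 for 9 of 53 probe sets of the members, including both of Stard4 and both of Srebf2, against 8.15% of all 22626 probe sets other than controls. Of these 22626 probe sets 30 were lower by more than 2 log2 units than the mean of the other arrays of the group on both arrays, the brighter Stard4 probe set among them. The Actb control was low on the same 2 arrays, and its part in the Stard4 and Srebf2 values was not tested.

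**Figure D5:**
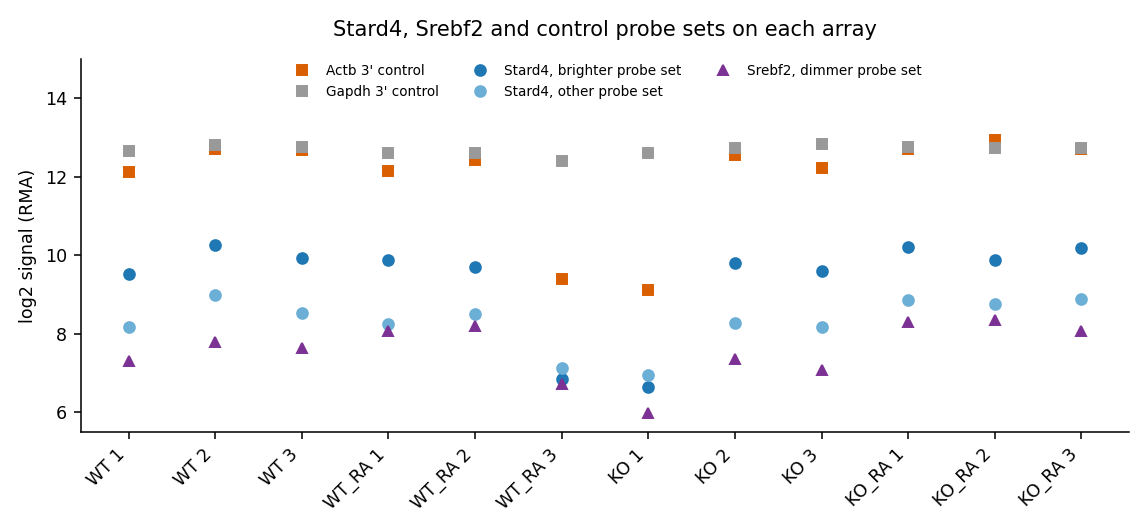
Log2 signal on each array of both Stard4 probe sets, the dimmer Srebf2 probe set, and the Actb and Gapdh control probe sets for the 3′ end. On WT_RA 3 and KO 1 the Actb control read 9.40 and 9.12 and the brighter Stard4 probe set 6.85 and 6.66, while the Gapdh control stayed within 12.41 to 12.85 on all arrays.

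Npc1 and Npc2 encode the pair of proteins that carry cholesterol out of lysosomes. Npc1 ranged from 8.07 to 8.94. Npc2, described in full after its values were seen, read 9.87, 9.71 and 9.93 in WT, 10.19, 9.98 and 10.39 in WT_RA, 9.85, 10.32 and 10.01 in KO, and 9.99, 10.04 and 9.99 in KO_RA. It was 0.35 ± 0.13 higher under RA in wild type mice without overlap (adjusted p = 0.291), and 0.24 higher without WT_RA 3. Its highest values, on WT_RA 3 and KO 2, fell on the arrays with the highest Kupffer cell and macrophage markers, whose median deviations were 0.61 and 1.66. Of these 16 markers all read higher in WT_RA than in WT, with a median of 1.03 and 2 called, and their part in the Npc2 values was not tested.

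For 17 members the array held more than 1 probe set, 53 for all members together. All probe sets of a gene had the same sign for 16 of the 17 under RA in KO mice and for 15 under KO_RA against WT_RA. This number was 11 for WT_RA against WT and 11 for KO against WT.

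Around the pathway, 60 related genes were listed and 49 were measured. The lists were Insig degradation partners, COPII coat proteins, isoprenoid branches, the liver X receptor (LXR) with its targets, and other SREBP2 targets. The LXR list also held Nr1h4, which encodes the bile acid receptor FXR. Of the 49 genes limma called 1 higher and 2 lower in WT_RA against WT (1.27% of all genes were called), and 0 higher and 1 lower in KO against WT (1.32%). It called none under RA in KO mice (0.5%), where 10 of the 49 had an unadjusted p under 0.05, against 1740 of all 12393 genes. In KO_RA against WT_RA it called 0 higher and 3 lower (3.95%). Of the 7 Insig degradation partners and the 9 COPII coat genes none was called in any of the 7 contrasts.

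The calls among isoprenoid genes lay downstream of farnesyl diphosphate. Zmpste24, the protease that trims prenylated proteins such as prelamin A, rose by 0.60 under RA in wild type mice (adjusted p = 0.00447) and fell by 0.59 in KO_RA against WT_RA (adjusted p = 0.00248). Its values were 9.96, 9.99 and 9.98 in WT, 10.62, 10.59 and 10.52 in WT_RA, 9.90, 9.71 and 9.86 in KO, and 9.90, 10.08 and 9.97 in KO_RA, so that WT_RA stood above every other array. Rabggta, a subunit of the transferase that prenylates Rab proteins, fell by 0.65 in KO against WT (adjusted p = 0.0057) and by 0.90 in KO_RA against WT_RA (adjusted p = 0.00045). Its KO and KO_RA arrays read 8.01 to 8.33 and its WT and WT_RA arrays 8.73 to 9.15. These calls held in each of the 12 fits that left out 1 array. Nus1, a subunit of the enzyme that makes the lipid precursor of dolichol, rose by 0.28 under RA averaged over genotypes, a call absent in 11 of those 12 fits.

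Among LXR targets, Lpl, lipoprotein lipase, fell by 1.29 under RA in wild type mice (adjusted p = 0.0308) and by 1.27 averaged over genotypes (adjusted p = 0.00464). The first call was absent without WT 1, WT 3, WT_RA 1, WT_RA 2 or WT_RA 3, and the second held in all 12 fits. Abcg5, a subunit of the transporter that moves sterols into bile, rose by 0.65 under RA averaged over genotypes (adjusted p = 0.0126). Lpcat3, a phospholipid acyltransferase, fell by 0.55 in KO_RA against WT_RA (adjusted p = 0.0325), a call absent in 7 of the 12 fits and without WT_RA 3 and KO 1 together (adjusted p = 0.0786), and by 0.44 averaged over diets (adjusted p = 0.0134). Among the other SREBP2 targets 1 of 11 was called, Cyb5r3, the reductase that feeds electrons to sterol and fatty acid desaturation, which fell by 0.56 under RA in wild type mice. That call was absent in 9 of the 12 fits (adjusted p up to 0.174), and without WT_RA 3 and KO 1 together (0.0808).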

How the data were processed

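The deposited table held 1 log2 value per probe set and array, which the authors made with RMA, a method that corrects background, normalizes by quantiles and summarizes probes, and Partek 6.11, per the submitters' processing notes, although MAS5 and a filter on detection are what the study's methods describe. Raw scanner files were not analysed here. The number of arrays limits the precision.

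Groups and replicate numbers came from the sample titles, which call the samples biological replicates. Of 22690 probe sets 64 were controls, 20380 had 1 gene symbol and 691 several, and the latter were left out. Symbols were checked by gene identifier for 20351 probe sets and 0 changed. The probe set with the highest mean stood for each of 12393 genes, with no filter on dim probe sets. Rank correlations between arrays of a group were 0.976 to 0.994, and 0 pairs of arrays were identical.

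Limma 3.58.1 (R 4.3.3) fitted the 4 group means over the 12 arrays with moderated variances, two-sided tests and 8 residual degrees of freedom, for 4 contrasts between groups, their interaction and 2 averages. Adjusted p-values are limma's, by Benjamini-Hochberg over all genes of a contrast, and called means an adjusted p under 0.05. Each error is a standard error of that fit with n = 3. The fit was run on simulated data with independent noise for each gene and no array effects. That run does not cover enzymes that move together by array, or the 2 arrays that stood apart. The median over the 18 measured synthesis enzymes is a description and has no test.

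The members, the related and marker lists, the alternatives and the rule for genes described on every array were chosen with earlier results of these data known. That rule took members called in any contrast, the member with the largest difference of its role in any of the 4 contrasts, and Srebf2, Insig1, Insig2, Sqle, Cyp51, Soat1 and Soat2. Alternatives were a replicate block, a further quantile normalization, only genes at or above the median of gene means, the mean of all probe sets, array weights, an intensity trend, only the groups compared, WT_RA 3 and KO 1 left out together, and each array left out. Promoter windows came from RefSeq (GRCm38.p6), the only coordinates used.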

Additional observations from a re-analysis of the deposited data

Results flagged for a closer look

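Erlin1 read higher under RA on every WT_RA array than on any WT array and lower on every KO_RA array than on any KO array. The difference between the RA effects was -0.38 ± 0.11 on the log2 scale (SE, n = 3 arrays a group, limma adjusted p = 0.253), from 0.15 in wild type mice and -0.24 in KO mice, so it did not pass. It ranged from -0.43 to -0.34 with 1 array left out. Effects of RA that opposed each other in this way, without overlap, were found for 168 of 12393 genes (1.36%), and Erlin1 was the only member among them. Kupffer cell and macrophage markers had a median difference of 1.03 under RA in wild type mice, -0.65 in KO mice and -1.49 in the interaction, where 16 of 16 were negative. Sinusoidal endothelial markers had medians of -0.01, -0.30 (2 called lower) and -0.21, with 10 of 10 negative in the interaction. The part of these cell types in the Erlin1 values was not tested.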

How the results depend on the processing

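The sample titles do not say whether same-numbered arrays were paired. Deviations of same-numbered arrays correlated at -0.46 to 0.27 over 18 pairs, and 1 of 12 arrays correlated best with its own number. Single arrays that stood apart weigh on these correlations, so they cannot show whether samples were paired or run in batches. With the replicate block, members called became 0 for RXRα deficiency on the normal diet (Erlin1 adjusted p = 0.0567) and 0 averaged over diets (0.0678), and no other number of members called moved. Among related genes the block lost the calls of Lpl (0.0573) and Cyb5r3 (0.0733) for RA in wild type mice, and of Cyb5r3 (0.0556) and Nus1 (0.0563) for RA averaged over genotypes. Estimated array weights called 2 members for RA in wild type mice (Cyp51, Npc2), 2 for RXRα deficiency on the normal diet (Erlin1, Npc2), 2 for RA in KO mice (Cyp51, Srebf2), 3 for RXRα deficiency under RA (Mvk, Mvd, Sqle), 3 for RA averaged over genotypes (Sqle, Cyp51, Srebf2) and 3 for RXRα deficiency averaged over diets (Mvk, Sqle, Erlin1). The mean of all probe sets gave 0 members on the normal diet (KO against WT) and 0 averaged over diets. A fit of only the groups compared gave 0 on the normal diet, and an intensity trend gave 0 averaged over diets. With 1 array left out the members called ranged from 0 to 1 for RXRα deficiency on the normal diet, from 0 to 2 for RA averaged over genotypes (2 without KO 2, 1 without KO_RA 2) and from 0 to 2 for RXRα deficiency averaged over diets. Of 691 values under alternatives, 243 numbers of members and enzyme medians stayed near the main value and 31 moved. Near meant within 1.5 times for numbers and within the pooled SD of 0.42 for medians, so that some changed sign. That SD was about as large as or larger than each main median (0.15 to 0.43), so this label could hardly fail for medians. All 31 that moved were numbers of members. For 21 chosen differences of 11 members, not all members, 388 values stayed on the same side of the threshold, 23 lost a call and 6 gained one, and no call changed direction. The cause was not tested. Over all genes, array weights called 1070 genes for RA in wild type mice (158 without weights), 1734 for KO against WT (163), 303 for RA in KO mice (62), 1064 for KO_RA against WT_RA (490), 247 for the interaction (1), 1010 for RA averaged (290) and 2370 for RXRα deficiency averaged (662). With 1 array left out these became 47 to 212, 51 to 217, 6 to 77, 170 to 599, 1 to 14, 151 to 288 and 403 to 767. Under the remaining alternatives they were 95 to 162, 70 to 266, 21 to 110, 312 to 475, 0 to 12, 227 to 315 and 537 to 679. A fit of only the groups compared gave no value for the interaction and averages, which use all 4 groups.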
